A study of Mus musculus with 6 samples.

Results

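The axon guidance families are ligand and receptor genes first described in growing nerves: the semaphorins (Sema) and their plexin receptors (Plxn), the ephrins (Efna, Efnb) and the Eph receptor kinases (Epha, Ephb), the Slit ligands and Robo receptors, and the Unc5 receptors of netrins. Members were the rows of the normalized count table whose symbol is one of these 9 family names with a member number or letter, averaging 10 or more normalized counts across all 6 libraries. Of 62 such rows, 58 met the mean, among 15229 genes tested of 53735 in the table: 20 semaphorins, 9 plexins, 5 Efna and 3 Efnb ephrins, 6 Epha and 5 Ephb receptors, 2 Slit, 4 Robo and 4 Unc5 genes. The other 4 were Slit1, with a mean of 9.83 just under the limit, and Epha6, Epha8 and Epha10, with means of 1.03, 0.317 and 0.174. Just above the limit were Plxnb3, with a mean of 12.3, and Sema5b, with 12.7.

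Expression was measured by sequencing of poly(A) RNA from lung endothelial cells of mice, kept in primary culture without passage or treatment. Cells had been captured with beads against CD31 and ICAM2, surface proteins of endothelium. The 2 groups were 2 libraries labelled ZMPSTE24 wild type and 4 labelled knockout, called wild type 1 and 2 and knockout 1 to 4 here; Zmpste24 encodes the protease that completes the maturation of lamin A, and its loss in mice gives a progeria-like disease. The labels give no age or sex, leave the deleted stretch of the gene unnamed, and state 2 cohorts of mice without assigning a library to one. Nothing states whether libraries are from different animals, so the p-values below reflect the variation among these libraries and some of it may be technical. Zmpste24 itself was at 5503 and 4148 normalized counts in wild type 1 and 2 and at 5079, 3764, 3599 and 3720 across knockout 1 to 4, so its total did not separate the groups (log2 difference -0.26 ± 0.20, SE). Without the position of the deletion this total does not check the labels, and wild type and knockout mean the libraries so labelled throughout.

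In vessels these proteins steer sprouting cells and keep unlike cells apart. Class 3 semaphorins are secreted and act through plexins, in most cases with a neuropilin as co-receptor, while Sema3e binds plexin D1 directly; a common response is withdrawal of the cell edge. Ephrin-B2 marks arterial and EphB4 venous endothelium, and both partners can signal where the cells touch. Slit proteins are secreted ligands of Robo receptors, Robo4 is largely restricted to endothelium, and Unc5b, the main vascular netrin receptor, is found on arterial and tip cells.

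Most values below split by library before they split by genotype, with wild type 1 and knockout 1 on one side. The libraries held 32699024 to 45613685 recovered reads. Summed over a list of 14 macrophage and leukocyte markers, these 2 libraries had 1886 and 1510 normalized counts against 28870 to 47224 in the other 4, with all 12 tested members lower in both and Cd3e at 0 in every library. The 20 endothelial markers, which include Robo4, summed to 246286 and 147010 against 53143 to 85537. The submitters describe the cultures as almost purely endothelial by staining and uptake of oxidized lipoprotein. All 20 endothelial markers passed the mean of 10, while the fibroblast markers summed to more counts than the endothelial ones in every library. The 9 fibroblast markers summed to 433271 to 501265 over all 6 libraries, a total carried by collagen genes. In 6 of the 9 the first set was lower than the other 4 libraries, as for Pdgfra (5842 and 3946 against 34290 to 69228), and in 2 it was higher, as for Col1a1 (173437 and 132850 against 78891 to 109886). The 9 smooth muscle and pericyte markers summed to 243350 and 217787 against 68669 to 131058, the 8 mesothelial markers to 29233 and 66056 against 9076 to 18495, and the 10 lung epithelial markers to 77.5 and 115 against 324 to 716. The 8 neuron and glia markers, of which 3 passed the mean of 10, summed to 394 to 1141. In such bulk samples a change in the number of cells of a type and a change of RNA per cell cannot be told apart, and the part of other cell types in the values below was not tested. Wild type 1 and knockout 1 are called the first set and the other 4 libraries the second set, a split seen in the data and not given by the labels, and a fit that includes this split beside genotype is called set-adjusted.

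The 58 members together took 0.419% to 0.493% of the normalized counts of each library. Per kilobase of merged annotated exon, Slit3 had the highest mean level (4015 normalized counts per kb) and the plexin gene Plxnb2 the next (3192). The length used merges all annotated exons of a gene, so the order of genes depends on the annotation. Plxnd1 (1899), Unc5b (1615), Plxna1 (1462), Epha2 (1297), Sema3f (1208) and Ephb4 (1096) followed. The ranges of neighbours in this order overlapped: Slit3 ranged from 2056 to 4941 per kb and Plxnb2 from 2717 to 3847. The arterial ligand gene Efnb2 stood at 933 per kb, with a range of 659 to 1120, beside 907 to 1374 for its venous receptor gene Ephb4. At the low end were Sema5b (1.79), Epha5 (1.84) and Plxnb3 (1.90).

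**Figure D1:**
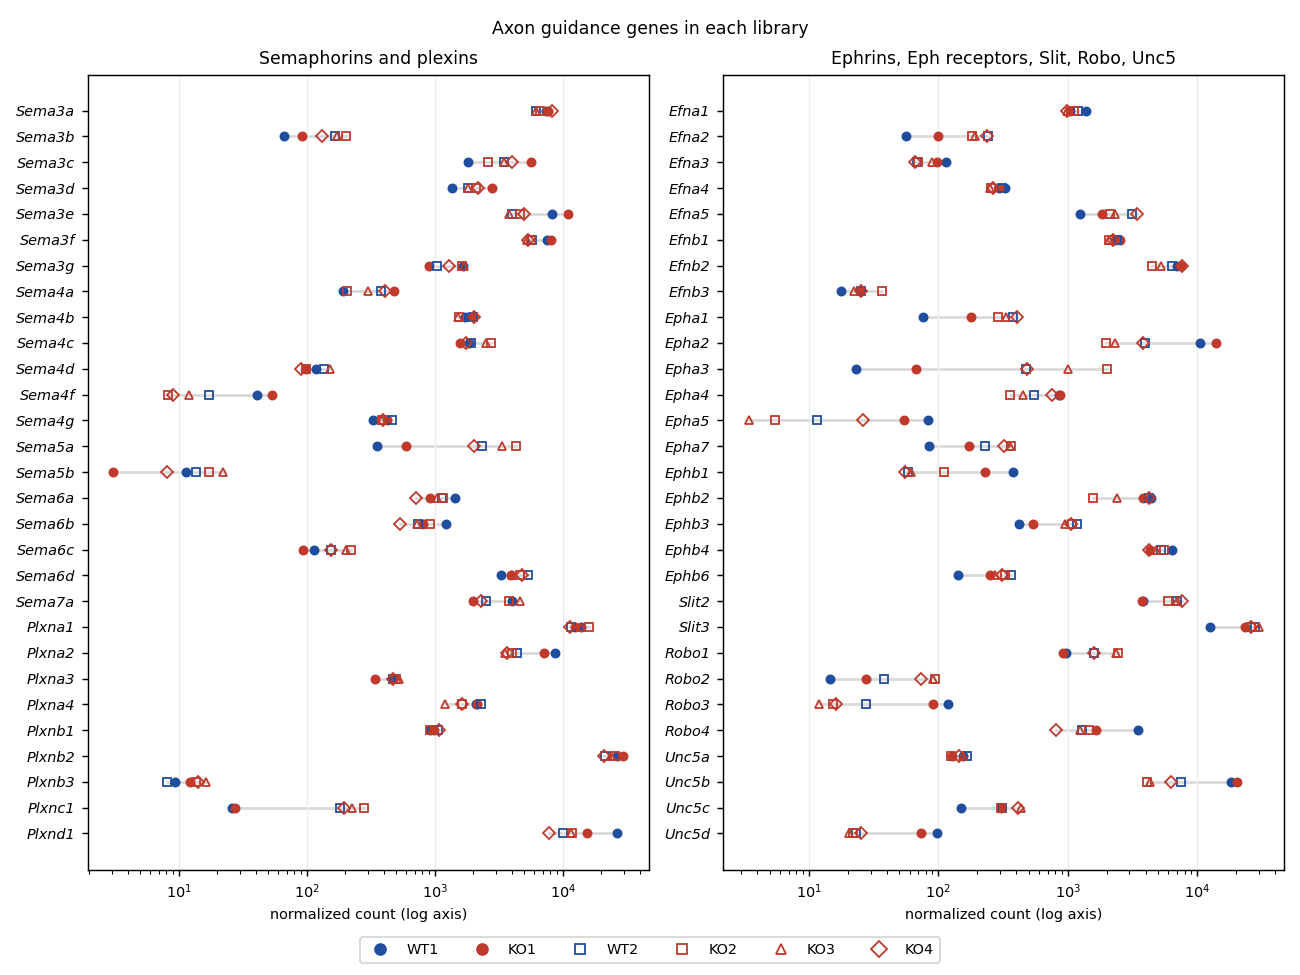
Normalized counts of the 58 members in each library on a log axis, with wild type in blue, knockout in red, and filled circles for wild type 1 and knockout 1. In 33 genes both filled circles lie outside the range of the other 4 libraries, as in Plxnc1 (26.2 and 27.7 against 182 to 280) and Unc5b (18267 and 20225 against 4089 to 7458).

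The promoters of 4 receptor genes described below are shown for 3 reasons: Robo3 and Robo4 are a facing pair, Epha3 had the widest range over libraries, and Epha7 was called in 1 of the fits to all 6 libraries. The sequences are from RefSeq on GRCm38.p6, from 250 bases before to 50 after the annotated start, and 51 of the 58 members had such a window; that of Epha7 is the upstream of 2. Capitals mark the GC box GGGCGG on either strand, a letter string that binds Sp factors.
Robo3, chr9:37433126-37433425, minus strand: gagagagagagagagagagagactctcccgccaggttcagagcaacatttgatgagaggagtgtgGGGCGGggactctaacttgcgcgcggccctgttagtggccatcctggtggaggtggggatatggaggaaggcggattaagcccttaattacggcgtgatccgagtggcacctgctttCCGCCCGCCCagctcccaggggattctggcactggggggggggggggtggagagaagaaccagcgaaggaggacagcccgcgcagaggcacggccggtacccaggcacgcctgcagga
Robo4, chr9:37401722-37402021, plus strand: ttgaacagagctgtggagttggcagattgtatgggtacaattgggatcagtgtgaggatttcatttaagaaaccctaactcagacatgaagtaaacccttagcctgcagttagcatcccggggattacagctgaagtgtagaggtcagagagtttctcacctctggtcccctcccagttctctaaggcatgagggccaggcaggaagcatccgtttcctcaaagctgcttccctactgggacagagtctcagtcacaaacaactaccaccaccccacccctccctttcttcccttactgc
Epha3, chr16:63864126-63864425, minus strand: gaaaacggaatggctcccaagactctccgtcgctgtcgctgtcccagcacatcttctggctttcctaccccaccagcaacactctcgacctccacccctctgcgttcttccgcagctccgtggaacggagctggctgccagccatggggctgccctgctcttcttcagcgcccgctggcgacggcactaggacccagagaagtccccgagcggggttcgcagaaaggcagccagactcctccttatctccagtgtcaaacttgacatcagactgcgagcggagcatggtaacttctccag
Epha7, chr4:28812881-28813180, plus strand: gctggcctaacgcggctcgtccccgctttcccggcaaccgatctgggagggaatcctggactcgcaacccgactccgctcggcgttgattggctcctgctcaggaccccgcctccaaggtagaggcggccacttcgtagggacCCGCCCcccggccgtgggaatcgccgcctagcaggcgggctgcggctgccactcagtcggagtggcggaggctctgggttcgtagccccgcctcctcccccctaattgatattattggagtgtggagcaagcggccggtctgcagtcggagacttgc
Robo3 held 3 matches to the GC box, of which an adjoining pair shares bases, Epha7 held 1, and Robo4 and Epha3 held 0. The GC content was 63.3% for Robo3, 50.3% for Robo4, 60.7% for Epha3 and 67% for Epha7. Of the 67 windows of members 68.7% held a GC box, beside 61.2% of the 13330 windows of tested genes and 35.7% of all 32851 windows. The ETS motif CCGGAAG on either strand was in none of the 4 windows, in 2.99% of member windows, in 15.8% of those of tested genes and in 8.86% of all windows. A match is a string of letters and not a bound site.

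None of the 58 members passed the main test of knockout against wild type (limma on log2(normalized count + 1) with genotype alone, adjusted p 1 for each), in which 1 gene of 15229 was called (0.00657%). At an unadjusted p under 0.05 this test held 1 member, Efna1, beside 0.939% of all genes. EdgeR and DESeq2 with genotype alone also called 0 members, against 0.00657% and 0.046% of all genes. At an unadjusted p under 0.05 edgeR held Efna1 (background 0.998%) and DESeq2 held Efna1 and Robo2 (background 1.43%).

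Set-adjusted limma called 0 members as well, beside 0.00657% of all genes. At an unadjusted p under 0.05 it held 5 members, 8.62% beside 3.51% of all genes: Epha7 and Robo2 higher in knockout (background 1.39%) and Efna1, Plxna2 and Robo3 lower (background 2.12%). Set-adjusted edgeR called 0 (background 0.0131%) and held the same 5 at an unadjusted p under 0.05 (background 3.51%). Set-adjusted DESeq2 called 1 member, Epha7, as higher in knockout, 1.72% beside 0.328% of all genes (0.0722% higher and 0.256% lower). At an unadjusted p under 0.05 it held 7 members, 12.1% beside 3.66%: Epha3, Epha7, Robo2, Sema3d and Unc5c higher and Efna1 and Plxna2 lower. In the second set alone limma called 0 members and 0% of all genes, and 4 members (Epha7, Plxna4, Robo2 and Sema3g) had an unadjusted p under 0.05, beside 1.98%. The second set holds wild type 2 as its only wild type, so that fit holds no spread among wild types. The median log2 difference of the members in limma was -0.03 both with genotype alone and set-adjusted, beside 0.00 over all tested genes with genotype alone. In the set-adjusted fit 26 members lay above 0 and 32 below.

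In set-adjusted limma Epha3 (log2 1.23), Robo2 (1.04), Epha7 (0.76), Plxnb3 (0.62) and Sema3c (0.61) lay highest. Robo3 (-0.70), Sema5b (-0.60), Ephb2 (-0.55), Robo4 (-0.53) and Epha5 (-0.51) lay lowest. The wild type and knockout libraries did not overlap in 4 members, 6.9% beside 4.68% of all genes: Efna1, Efna4 and Ephb2 were lower in knockout and Plxnb3 higher (background 2.32% lower and 2.36% higher). All 4 knockout libraries lay above the wild type of their set in 5 members (background 10.1%) and below it in 6 (background 10.8%), shares near those of all genes; knockout 2, 3 and 4 share wild type 2 in this comparison.

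**Figure D2:**
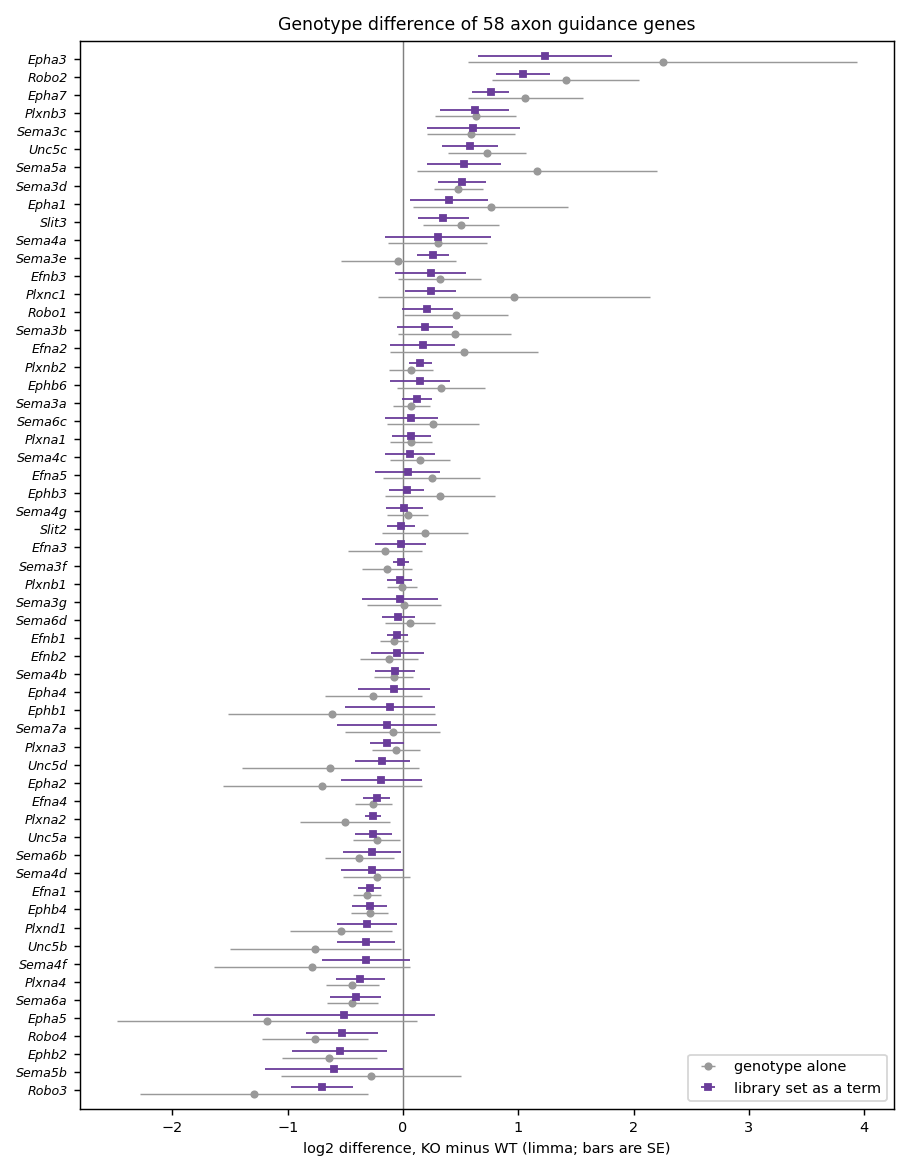
Log2 difference, knockout minus wild type, of the 58 members from limma with genotype alone (grey) and set-adjusted (purple), bars showing the SE. In the set-adjusted values Epha3, Robo2 and Epha7 lie farthest above 0 and Robo3 farthest below, and the bar of Epha3 is wider with genotype alone (SE 1.69) than set-adjusted (0.58).

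**Figure D3:**
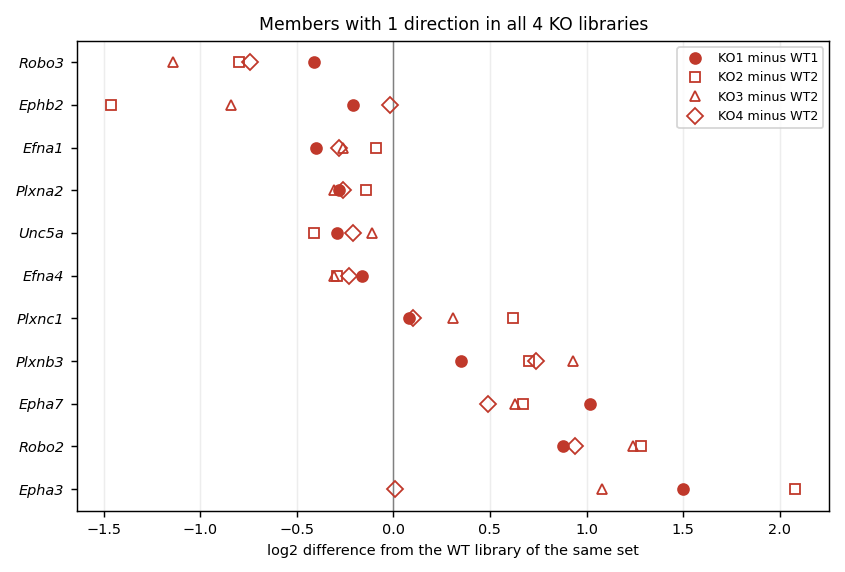
Log2 difference of each knockout library from the wild type library of its set for the 11 members in which all 4 knockout libraries lay on 1 side. The 4 values of Robo2 lie between 0.88 and 1.28, while those of Epha3 run from 0.01 to 2.08.

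Among secreted ligands the class 3 semaphorins were the largest group of semaphorin counts. Their 7 genes summed to 28127 and 22538 normalized counts in wild type 1 and 2 and to 36212, 23493, 22433 and 26240 across knockout 1 to 4. The highest total was knockout 1, and the wild type values lay within the range of the knockout ones. Sema3a, a repellent of endothelial and nerve cells, was at 7435 and 6231 counts in wild type 1 and 2 and at 7717, 6630, 6212 and 8239 across knockout 1 to 4. Its libraries were within 1.33 times of each other, with a log2 difference of 0.07 ± 0.16 (SE). Sema3f, a ligand of neuropilin-2, was at 7548 and 5770 counts in wild type 1 and 2 and at 8046, 5647, 5257 and 5395 across knockout 1 to 4. Sema3e, the direct ligand of plexin D1, was at 8227 and 3998 counts in wild type 1 and 2 and at 11018, 4664, 3793 and 4957 across knockout 1 to 4. In both Sema3f and Sema3e the first set lay above the other 4 libraries, and genotypes overlapped.

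Sema3c, which guides outflow tract and vessel development, differed between genotypes in the first set more than in the second, a contrast that was not tested. It was at 1815 counts in wild type 1 and 3502 in wild type 2, while knockout 1 to 4 were at 5613, 2623, 3496 and 4041. Knockout 1 was higher than wild type 1 by log2 1.63, while knockout 2, 3 and 4 differed from wild type 2 by -0.42, -0.00 and 0.21. The log2 difference was 0.59 ± 0.38 (SE) with genotype alone. In the second set alone, with wild type 2 as the only wild type, it was -0.07. Sema3d shared the wide first set difference (log2 1.05), with 1361 to 2822 counts over the 6 libraries. Sema3g, a semaphorin of arterial endothelium, had 905 to 1686 counts and Sema3b 66.0 to 202.

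Each class of membrane-bound semaphorins was lower in sum than class 3. Sema4 genes, of which Sema4d is a ligand of plexin B1, were even in sum, at 4253 to 5017 counts, with Sema4c (1581 to 2760) and Sema4b (1512 to 2009) the most abundant. Sema5a, which carries thrombospondin repeats, had 355 and 596 counts in wild type 1 and knockout 1 against 2013 to 4279 in the other 4. Sema5b was at 11.5 and 13.8 counts in wild type 1 and 2 and at 3.08, 17.3, 22.3 and 8.07 across knockout 1 to 4. The value of Sema5b in knockout 1 was 3 reads, and its log2 difference in set-adjusted limma, -0.60 ± 0.60 (SE), was no larger than its error. Sema6 genes, ligands of plexin A receptors, summed to 5780 to 7371 counts, led by Sema6d (3274 to 5340). Sema7a, a membrane-anchored ligand of plexin C1 and integrins, had 1974 to 4653 counts, with no separation by genotype or set.

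The plexins, the receptors of these ligands, ranged from 3192 per kb for Plxnb2 to 1.90 for Plxnb3. Plxnb2 was at 26507 and 21170 counts in wild type 1 and 2 and at 29700, 25510, 23990 and 20975 across knockout 1 to 4, a log2 difference of 0.07 ± 0.19 (SE). Plxna1, a partner of neuropilins, was at 13878 and 11686 counts in wild type 1 and 2 and at 12432, 16139, 13881 and 11383 across knockout 1 to 4. For both, the wild type values fell inside the knockout range. Plxnd1, the endothelial receptor of Sema3e, was at 26652 and 10121 counts in wild type 1 and 2 and at 15391, 11759, 11545 and 7734 across knockout 1 to 4. The first set was the higher for Plxnd1, and knockout 1 differed from wild type 1 by log2 -0.79 while knockout 2, 3 and 4 differed from wild type 2 by 0.22, 0.19 and -0.39.

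Plexins of lower level showed other patterns. Plxnc1, the receptor of Sema7a, had 26.2 and 27.7 counts in the first set and 182 to 280 in the second. Also lower in the first set were all 12 tested macrophage and leukocyte markers, 6 of the 9 fibroblast markers and 5 of the 6 tested lung epithelial markers. The same held for 32.7% of all genes. Whether leukocytes or other cells carried Plxnc1 was not tested. Plxna2 had 8741 and 7180 counts in the first set, wild type first, and 4402 in wild type 2 against 3982, 3546 and 3668 in knockout 2, 3 and 4. Each knockout library thus lay below the wild type of its set, with a log2 difference of -0.26 ± 0.07 (SE, set-adjusted limma, adjusted p = 0.999). Plxnb3 was at 9.42 and 8.06 counts in wild type 1 and 2 and at 12.3, 13.7, 16.3 and 14.1 across knockout 1 to 4. Its groups did not overlap, but these values were 7 to 19 reads, where counting alone gives an error of about 31.6% at 10 counts, and its log2 difference was 0.62 ± 0.30 (SE, set-adjusted limma).

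**Figure D4:**
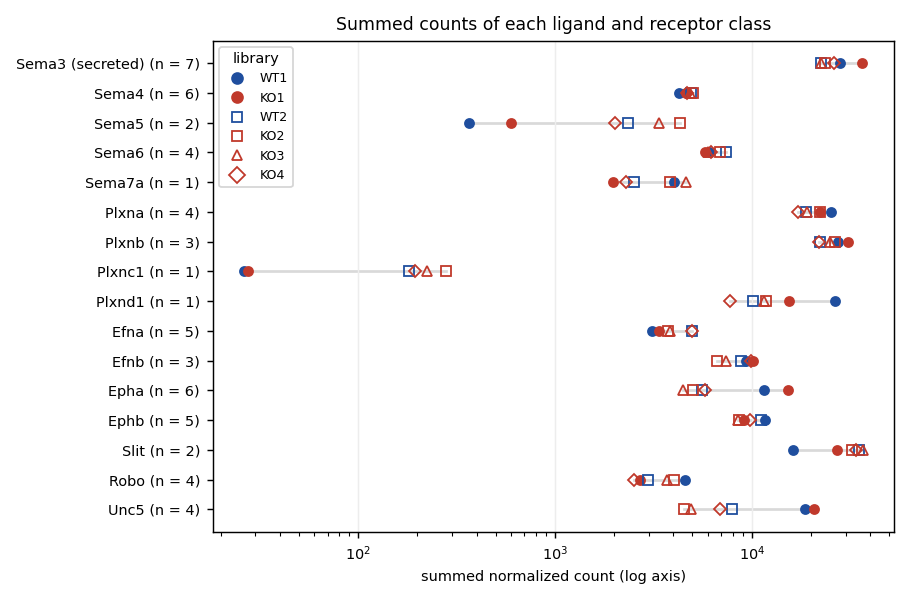
Summed normalized counts of each ligand and receptor class in each library on a log axis, wild type in blue, knockout in red, filled circles for wild type 1 and knockout 1. The filled circles lie apart in several classes, among them Sema5 (366 and 599 against 2021 to 4296), Plxnc1, Epha, Slit and Unc5, while Sema4 and Sema6 stay within narrow ranges.

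Of the GPI-anchored ephrin-A ligands, 3 lie in 1 cluster on chromosome 3, and the outer genes of that cluster did not overlap between genotypes. Positions here are those of GENCODE M21 on GRCm38. Efna1 (chromosome 3, 89271733 to 89281142, minus strand), which tumour necrosis factor induces in endothelium, was at 1386 and 1196 counts in wild type 1 and 2 and at 1050, 1123, 995 and 986 across knockout 1 to 4. Efna4 (89333390 to 89338028, minus strand), 52.2 kb away, was at 327 and 312 counts in wild type 1 and 2 and at 293, 255, 251 and 266 across knockout 1 to 4. In both genes every knockout library was below both wild type libraries. The log2 difference was -0.31 ± 0.12 (SE; 95% interval -0.62 to -0.01) for Efna1 and -0.26 ± 0.16 (-0.65 to 0.13) for Efna4, and neither passed in limma (adjusted p = 1). Efna3, which lies between them, had 65.6 to 114 counts with overlapping groups. Efna5 was at 1245 and 3163 counts in wild type 1 and 2 and at 1842, 2116, 2301 and 3420 across knockout 1 to 4; it was lowest in the first set, as was Efna2 (56.5 and 99.6 against 182 to 241).

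Of the 3 transmembrane ephrin-B ligands, none was separated by genotype or set. Efnb2, the arterial ligand, was at 6953 and 6349 counts in wild type 1 and 2 and at 7562, 4517, 5302 and 7679 across knockout 1 to 4. Its log2 difference was -0.12 ± 0.25 (SE). Efnb1 was at 2336 and 2419 counts in wild type 1 and 2 and at 2555, 2103, 2090 and 2250 across knockout 1 to 4, and Efnb3 was at 17.8 and 25.3 counts in wild type 1 and 2 and at 24.7, 36.5, 22.3 and 25.2 across knockout 1 to 4. The highest library exceeded the lowest 1.22 times for Efnb1, 1.7 times for Efnb2 and 2.05 times for Efnb3. On the log2(count + 1) scale, 35 of 58 members (60.3%) differed over 2-fold between the highest and the lowest library, beside 38% of all genes.

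EphA receptors bind ephrin-A ligands, and all 6 differed more than 2-fold between libraries. Epha2, the main EphA receptor of angiogenic endothelium and of epithelia, was at 10452 and 3930 counts in wild type 1 and 2 and at 13890, 1986, 2320 and 3809 across knockout 1 to 4. Epha4 was at 864 and 547 counts in wild type 1 and 2 and at 868, 360, 455 and 760 across knockout 1 to 4. Epha5, expressed mainly in nerve tissue, was at 83.8 and 11.5 counts in wild type 1 and 2 and at 54.4, 5.47, 3.43 and 26.2 across knockout 1 to 4. In these 3 genes the first set lay above the other 4 libraries whatever the genotype, as in 30.7% of all genes. The sums of the endothelial, smooth muscle and pericyte, and mesothelial markers did so too. By gene, this held for 17 of the 20 endothelial, 5 of the 9 smooth muscle and pericyte and 5 of the 8 mesothelial markers, with 0 lower in each list. Whether such cells carried these receptors was not tested.

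The other EphA receptors lay lower in the first set. Epha3 (chromosome 16, 63543534 to 63864175, minus strand), a receptor of mesenchymal cells, was at 23.0 and 477 counts in wild type 1 and 2 and at 66.8, 2021, 1010 and 481 across knockout 1 to 4. This was the widest range of the members, 87.8 times from the lowest to the highest library. Each knockout library lay above the wild type of its set, by log2 1.5, 2.08, 1.08 and 0.01, and the difference of 1.23 ± 0.58 (SE, set-adjusted limma; 95% interval -0.23 to 2.69) did not pass (set-adjusted limma adjusted p = 0.999, set-adjusted DESeq2 adjusted p = 0.873). With genotype alone it was 2.25 ± 1.69, and 0.09 without wild type 1 and 4.4 without wild type 2. Epha1 had 76.4 and 178 counts against 289 to 408, and its exons overlap those of Zyx on the other strand, a gene of 21837 to 30297 counts, so that its counts are uncertain if counting did not use strand.

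Epha7 (chromosome 4, 28813131 to 28967499, plus strand), a receptor of ephrin-A5 known from neural patterning, was the 1 member called in any fit to all 6 libraries. It was at 84.8 and 229 counts in wild type 1 and 2 and at 173, 366, 356 and 322 across knockout 1 to 4. All 4 knockout libraries lay above the wild type of their set, by log2 1.02, 0.67, 0.63 and 0.49, though knockout 1 lay below wild type 2. The log2 difference was 1.06 ± 0.50 (SE) with genotype alone and 0.76 ± 0.16 set-adjusted (95% interval 0.37 to 1.16). In the second set alone, with wild type 2 as the only wild type, it was 0.60. With genotype alone it was 0.35 without wild type 1 and 1.77 without wild type 2. Set-adjusted DESeq2 called it (adjusted p = 0.0465), while set-adjusted limma and edgeR did not (adjusted p = 0.999 and 1). The DESeq2 call was lost without knockout 2, 3 or 4, at adjusted p = 0.65, 1 and 0.111 and log2 differences of 0.75, 0.76 and 0.80. Without knockout 4 that fit called Epha3 (log2 1.62, DESeq2 adjusted p = 0.00392) and Sema5a (0.72, DESeq2 adjusted p = 0.00787) in its place. It then called 144 of all 15229 genes, beside 50 with all 6 libraries. Epha7 lies 92.1 Mb from Zmpste24 on the same chromosome.

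EphB receptors bind the ephrin-B ligands, and the highest library exceeded the lowest from 1.51 times for Ephb4 to 6.81 times for Ephb1. Ephb4, the venous receptor, was at 6375 and 5219 counts in wild type 1 and 2 and at 4349, 5507, 4848 and 4209 across knockout 1 to 4, a log2 difference of -0.29 ± 0.16 (SE) with overlapping groups, which was -0.15 without wild type 1 and -0.44 without wild type 2. Its exons overlap those of Zan on the other strand, a gene of 7.19 to 17.8 counts. Ephb2 (chromosome 4, 136647539 to 136835988, minus strand) was at 4397 and 4284 counts in wild type 1 and 2 and at 3803, 1560, 2384 and 4218 across knockout 1 to 4. Its groups did not overlap, but knockout 4 differed from wild type 2 by log2 -0.02 and knockout 2 by -1.46, and the difference of -0.64 ± 0.41 (SE) did not pass in limma (adjusted p = 1). Ephb2 lies 15.5 Mb from Zmpste24 and Epha2 20.2 Mb. Ephb3 was at 422 and 1174 counts in wild type 1 and 2 and at 544, 1077, 955 and 1053 across knockout 1 to 4. It was lowest in the first set, while Ephb1, with 378 and 228 counts against 55.5 to 111, was highest there, and Ephb6, a member without kinase activity, had 143 and 251 against 274 to 368.

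Of the Slit ligands, Slit3 had the highest mean level per kb of all members (4015), and Slit2 was at 230 per kb. Their mean counts were 24356 and 5860, over merged exons of 6067 nt for Slit3 and 25433 nt for Slit2. Slit3 was not the highest in the first set. In wild type 1 it was at 2056 per kb, below Plxnd1 (3651), Plxnb2 (3434), Unc5b (2919) and Epha2 (2236). In knockout 1 it was at 3841 beside 3847 for Plxnb2. Slit3 (chromosome 11, 35121224 to 35708507, plus strand), an angiogenic ligand of Robo receptors, was at 12476 and 27921 counts in wild type 1 and 2 and at 23304, 26258, 29979 and 26199 across knockout 1 to 4. Slit2 was at 3797 and 6991 counts in wild type 1 and 2 and at 3776, 5928, 6973 and 7695 across knockout 1 to 4. For Slit3 wild type 1 was the lowest, and the difference of log2 0.50 ± 0.33 (SE) rested on it: without wild type 1 it was -0.08. For Slit2 both libraries of the first set were low, with nearly equal values.

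The 4 Robo receptors form 2 neighbouring pairs with opposite patterns. Robo4 (chromosome 9, 37401897 to 37415115, plus strand), the endothelial receptor, was at 3464 and 1300 counts in wild type 1 and 2 and at 1664, 1473, 1237 and 818 across knockout 1 to 4. Robo3 (37415669 to 37433246, minus strand), whose end faces that of Robo4 at a distance of 554 nt, was at 120 and 27.7 counts in wild type 1 and 2 and at 90.4, 15.5, 12 and 16.1 across knockout 1 to 4. Both were highest in the first set. The set-adjusted log2 difference was -0.53 ± 0.31 (SE) for Robo4 and -0.70 ± 0.27 for Robo3 (limma adjusted p = 0.999 for both). With genotype alone it was -0.76 ± 0.46 for Robo4 and -1.29 ± 0.99 for Robo3, and without wild type 1 it was -0.05 and -0.25. Per kb Robo3 was at 6.87 and Robo4 at 313.

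Robo1 and Robo2, 846 kb apart on chromosome 16, were lowest in the first set. Robo1, the broadly expressed receptor, was at 967 and 1592 counts in wild type 1 and 2 and at 918, 2451, 2381 and 1606 across knockout 1 to 4. Robo2 (73891839 to 74411825, minus strand), best known from nerve and kidney development, was at 14.7 and 38.0 counts in wild type 1 and 2 and at 27.7, 94.0, 90.9 and 73.7 across knockout 1 to 4. Every knockout library was above the wild type of its set for Robo2, by log2 0.88, 1.28, 1.24 and 0.94. The difference was 1.41 ± 0.64 (SE) with genotype alone and 1.04 ± 0.23 set-adjusted (95% interval 0.47 to 1.62). In the second set alone, with wild type 2 as the only wild type, it was 1.15. With genotype alone it was 0.75 without wild type 1 and 2.07 without wild type 2. It passed in none of these fits (set-adjusted limma adjusted p = 0.999, set-adjusted DESeq2 adjusted p = 0.352).

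Of the netrin receptors, Unc5b, 1 of the 12 arterial markers used here, carried most counts. It was at 18267 and 7458 counts in wild type 1 and 2 and at 20225, 4089, 4298 and 6306 across knockout 1 to 4. In the first set the genotypes differed by log2 0.15, and in the second knockout 2, 3 and 4 differed from wild type 2 by -0.87, -0.79 and -0.24. The difference was -0.32 ± 0.25 (SE, set-adjusted limma). Summed, the 12 arterial markers, which include Unc5b and Efnb2, were at 45935 and 39381 counts in the first set and 18136 to 21238 in the second. The first set lay above the second in 7 of them and below it in 1. The 8 venous markers, which include Ephb4, summed to 68312 and 60218 against 30656 to 41274. The first set lay above in 4 of these 8 and below in 1, Nr2f2 (2982 and 2355 against 5840 to 8711). Whether the share of arterial cells moved with Unc5b was not tested. Unc5c was at 151 and 311 counts in wild type 1 and 2 and at 304, 307, 439 and 416 across knockout 1 to 4, with a log2 difference of 0.58 ± 0.24 (SE, set-adjusted limma). Unc5a was at 156 and 168 counts in wild type 1 and 2 and at 127, 126, 156 and 145 across knockout 1 to 4. Knockout 3 had the same rounded count as wild type 1. The exons of Unc5a overlap those of Hk3, a hexokinase gene on the other strand with 12.6 and 5.14 counts in the first set and 167 to 322 in the second, so that some counts are uncertain.

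Over the whole group, 33 of 58 members (56.9%) had both libraries of the first set outside the range of the other 4, beside 63.4% of all genes. In 15 members the first set was higher and in 18 lower (background 30.7% and 32.7%). By log2 means the first set was lower by 20.5-fold for Epha3, 7.82-fold for Plxnc1 and 6.24-fold for Sema5a, and higher by 6.89-fold for Epha5, 5.84-fold for Robo3, 4.18-fold for Epha2 and 3.58-fold for Unc5b. Receptors of 1 family lay on both sides, with 3 EphA receptors higher and 3 lower and 2 Robo genes each way. No test was made of this pattern, since the sets were found in the same libraries.

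Partner genes of these families were read from 5 lists. Of 13 tested co-receptors and other receptors of the same ligands, limma called 0 with or without set adjustment, and 3 (Flt1, Flt4 and Kdr) were lower at an unadjusted p under 0.05 in the set-adjusted fit (background 2.12%). Set-adjusted DESeq2 called 2 of them lower (background 0.256%), the vascular endothelial growth factor receptor genes Flt1 and Flt4. Flt1 was at 9339 and 4732 counts in wild type 1 and 2 and at 3854, 2724, 3136 and 2495 across knockout 1 to 4 (log2 -0.97 ± 0.15, SE, set-adjusted limma; DESeq2 adjusted p = 0.00019). Flt4 was at 16041 and 10497 counts in wild type 1 and 2 and at 10272, 5307, 4404 and 3648 across knockout 1 to 4 (log2 -1.01 ± 0.20; DESeq2 adjusted p = 0.00809). With genotype alone DESeq2 called neither gene (DESeq2 adjusted p = 0.667 for Flt1), so both calls rest on the set split seen in these libraries. Flt1 is also 1 of the 20 endothelial markers and Flt4 1 of the 9 lymphatic ones. The endothelial markers had a median set-adjusted difference of -0.49 and the lymphatic ones, of which 8 were tested, of -0.89. The first median includes Flt1 itself and the second Flt4. The lymphatic list also holds the members Sema3a (0.12) and Sema3d (0.51), while Prox1, Lyve1, Pdpn, Flt4, Reln and Mmrn1 lay below 0. The part of these markers in the calls was not tested. The neuropilin genes Nrp1 and Nrp2 had 6849 to 16040 and 7626 to 10637 counts, with set-adjusted log2 differences of 0.32 ± 0.38 and 0.00 ± 0.14.

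Among 28 partners of Eph receptors and ephrins, limma called 0 with or without set adjustment. At an unadjusted p under 0.05 in set-adjusted limma, Nck2 was higher (background 1.39%) and Rhbdl2 lower (background 2.12%). Set-adjusted DESeq2 called 1 lower (background 0.256%), Rhbdl2, which encodes a rhomboid protease (DESeq2 adjusted p = 7.3e-05, limma adjusted p = 0.177). Rhbdl2 was at 228 and 38.0 counts in wild type 1 and 2, at 11.3 in knockout 1 and at 0 in knockout 2, 3 and 4. DESeq2 with genotype alone did not call it. The 13 netrin, RGM, FLRT and latrophilin genes, the 24 partners of plexins and the 18 partners of Robo held 0 calls in limma, with or without set adjustment, and in set-adjusted DESeq2, and 0 at an unadjusted p under 0.05 in set-adjusted limma. The most abundant were Flrt2 (5783 to 15545), Adgrl2 (1935 to 5220) and Adgrl1 (2520 to 3082) among the first, Rras2 (21183 to 23314), Mical2 (5526 to 33937) and Arhgef12 (10007 to 13311) among the second, and Sdc4 (18389 to 31844), Cdc42 (18229 to 22627) and Rac1 (15453 to 21677) among the third. The median set-adjusted log2 difference of these 5 lists lay between -0.10 and 0.03, beside -0.00 over all genes.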

How the data were processed

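The deposited table gives a normalized count signal per gene and library for 53735 genes, that is, reads scaled by the authors with 1 size factor per library. Per the submitters' processing notes, Trimmomatic 0.36, STAR 2.6.0c and featureCounts of Subread 1.6.1 were used on GRCm38.p6; the series design text names Trimmomatic 0.32, STAR 2.4.2a, HTSeq with GENCODE M17 and DESeq2 1.10.1. The sources used here do not give which of these made the table, or whether counting used strand. Dividing each library by its smallest positive value, taken as 1 read, returned whole reads for 100% of values of each library (tolerance 1e-06 of a read).

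Genes with a mean of at least 10 were tested with limma 3.58.1 in R 4.3.3 on log2(normalized count + 1), which understates changes of low genes, with genotype alone and Benjamini-Hochberg adjustment over all 15229 genes (threshold 0.05). EdgeR 4.0.16 and DESeq2 1.42.0 were run on the recovered reads, and all 3 also with the set of the library beside genotype (set-adjusted). The set-adjusted fits were tested on simulated data with changes larger than any set-adjusted difference of the members. That test therefore does not bear on differences of their size. Positions and merged exon lengths are from GENCODE M21 (GRCm38), matched by symbol. The members, the lists and the library sets were chosen with earlier results of these data known.

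Values in every library were given for the 3 most abundant members of each family, any member called, any with separated genotypes, and the 5 highest and 5 lowest set-adjusted differences. Plxna2, Plxnc1, Sema5a and other members were named after their values were seen. Of the other lists, called genes or the 3 most abundant were named; Nrp1 and Nrp2 were named beside them.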

Additional observations from a re-analysis of the deposited data

Results flagged for a closer look

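Of the 32 members given with values in every library, 3 had 1 outlying library among the 4 knockout libraries. Its gap to the nearest of the others, as a share of the group's whole range, passed Dixon's 95% limit for 4 samples. Gap and range were taken on the log2(count + 1) scale, while the counts in brackets are not logged. The library was knockout 1 each time. For Epha7 knockout 1 was the lowest, with a gap of 0.830 of the log2 range (173 counts against 322 to 366). For Robo3 it was the highest, with 0.858 (90.4 against 12 to 16.1), and for Sema3f the highest, with 0.832 (8046 against 5257 to 5647). For 4 like libraries chance flags about 1 in 20 groups of this size. Knockout 1 and wild type 1 lay apart from the other 4 libraries in 63.4% of all genes, so this rate is not a measure for these members. The share of all genes flagged in this way was not worked out. Knockout 1 belongs to the first set of libraries, and wild type 1 lay on the same side of the other 4 libraries in all 3 genes.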

How the results depend on the processing

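Of 20 members whose log2 difference was recomputed under the alternatives (359 values), 11 kept their direction in all settings run and 9 changed it in at least 1; a filter at a mean of 50 leaves out the lowest genes. In the second set alone the log2 difference was -0.31 for Efna5, -0.07 for Sema3c, 0.08 for Sema5b and -0.03 for Slit3, and Sema5b was at 0.02 in edgeR and 0.01 in DESeq2. With the title number as a replicate block, Efna5 was at -0.01. Leaving out 1 library at a time gave -0.43 to 0.92 for Efna5, -0.23 to 0.02 for Efnb2, -1.40 to 0.01 for Epha2, -2.55 to 0.20 for Epha5, -0.09 to 0.23 for Plxnb2, -0.06 to 0.20 for Sema3a, -0.63 to 0.21 for Sema5b and -0.08 to 1.08 for Slit3. The cause was not tested.

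Members called numbered 0 in all planned settings but set-adjusted DESeq2, which called 1; leaving out knockout 2, 3 or 4 from that fit, tried after the data were seen, gave 0 to 2 members (Epha3 and Sema5a without knockout 4) and 41, 11 and 144 genes. Genes called numbered 1 in the main test, 2 at a pseudocount of 5, 7 in DESeq2, 2 in set-adjusted edgeR and 50 in set-adjusted DESeq2, 0 in the second set alone and 0 with the replicate block; without 1 library they numbered 0 to 2. Same-numbered libraries deviated together (r = 0.841 for number 1 and 0.562 for number 2). Wild type 2 also did with knockout 3 (r = 0.668) and 4 (r = 0.530), which have no partner. With only 2 wild types their deviations from the mean mirror each other, so the values for number 1 and number 2 are not independent. The block rests on 4 libraries and changed no call of a member. TMM scaling moved the median of all genes by 0.0086 (log2). Means near 10 counts limit Plxnb3 and Sema5b.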
